A study of Mus musculus with 13 samples.

Results

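Erythroid maturation in control mouse fetal liver was measured over its whole sorted span, by setting Ter119+ CD71med cells against Ter119- CD71+ cells. The comparison rested on 5 of the 13 arrays of the series, 2 of Ter119+ CD71med cells (embryos 13 and 15) and 3 of Ter119- CD71+ cells (embryos 2, 13 and 15). A further 3 control arrays, of Ter119+ CD71+ cells from the same 3 embryos, served as the midpoint and placed each change before it, after it or on both sides of it. Arrays were chosen by genotype and sorted population, and no measured value entered the choice. The study deleted Adar1, the gene of an RNA-editing enzyme, in erythroid cells. The embryos were taken at E14.5, and their erythroid cells were sorted by flow cytometry. Control embryos carried EpoR-Cre (ki/+), a Cre recombinase expressed from the erythropoietin receptor locus, the R26 EYFP reporter (ki/+) and an Adar1 genotype of fl/+, on a background given as C57JB6. These controls are therefore not wild type, since Cre can delete their floxed allele. The 5 knockout arrays (Adar1 fl/-) lent only their spread to the tests. The design text gives 1 mouse per sample, the embryo number shows which arrays share an embryo, and litters are not given in the sources used here.

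Ter119 is a surface antigen that appears as erythroblasts mature, and CD71 is the transferrin receptor, which is high on dividing precursors and is lost late. Ter119- CD71+ cells hold early precursors such as proerythroblasts, and Ter119+ CD71med cells are further along. In textbook accounts, maturing erythroblasts fill with haemoglobin, build the membrane skeleton, divide a few last times while shrinking, condense the nucleus, and clear ribosomes and mitochondria. The transcription factors GATA1 and KLF1 drive much of that programme, while KIT signalling and MYB and MYC hold cells in the proliferating state.

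Values are log2 RMA signals, so a difference of 1 is a 2-fold difference in signal, and levels are compared only within a gene. Of 13 erythroid markers measured, 10 were higher in the CD71med cells and 0 were lower (76.9% called, beside 38.2% of all genes). Tfrc, which encodes CD71, was at 12.05, 11.87 and 11.89 in the Ter119- arrays (embryos 2, 13 and 15) and at 12.48 and 12.47 in the CD71med arrays (embryos 13 and 15). The Tfrc groups did not overlap, and the transcript rose by 0.54 (SE 0.12, limma adjusted p = 0.0023) in the population gated for a lower surface level of its product. The 2 CD71med arrays differed from each other by a median of 0.205 log2 units over genes, against 0.123 to 0.178 between arrays of the other control groups. In bulk cells, fewer cells of a type and less RNA per cell cannot be told apart.

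The span called 7615 of 19938 genes (38.2%) at an adjusted p under 0.05, 3610 of them higher (18.1%) and 4005 lower (20.1%) in CD71med cells. The balance of directions depended on scaling: after quantile normalization again 3612 were higher and 3466 lower. The 2 CD71med arrays lay outside the range of the 3 Ter119- arrays for 7562 of the called genes, and for 60.6% of all genes. Within embryos 13 and 15 taken apart, 7586 of the called genes moved in the called direction in both. Falls were more often large: 1961 called genes fell by at least 1 log2 unit and 781 rose by as much. At 3 units or more the counts were 49 and 47. The median difference of all genes was 0.14 and became 0.04 when the arrays were quantile-normalized again, so gene groups are read against that median. It depended on level: genes in the lowest, middle and highest 33.3% by mean signal had medians of 0.20, 0.18 and -0.29. The shares called in these groups were 16.3%, 33.3% and 65%. Of the called genes, 1507 were higher by under 0.5 and 382 were lower by under 0.5. Without the CD71med array of embryo 15, 5178 genes were called, and 2030 of them were higher.

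The largest rise was that of Tcp11l2, a gene used as a marker of late erythroblasts. Its signal was 5.10, 4.97 and 5.21 in the Ter119- arrays, 8.66, 9.69 and 9.85 at the midpoint, and 11.44 and 11.38 in CD71med cells. The stages did not overlap, and the rise was 6.32 (SE 0.37, limma adjusted p = 3.81e-08). Hsd3b6, a hydroxysteroid dehydrogenase, went from 6.66, 5.55 and 6.05 to 11.93 and 11.86, a rise of 5.81 (SE 0.25, limma adjusted p = 4.57e-09). Xpo7, a nuclear export receptor needed for nuclear condensation in erythroblasts, went from 8.28, 8.05 and 8.07 to 12.78 and 12.77. Both genes had covered most of that distance at the midpoint, where Hsd3b6 read 10.33, 10.68 and 10.86 and Xpo7 read 11.50, 12.01 and 12.19. The remaining 5 of the 8 largest rises were those of the embryonic globin Hbb-y (4.50), the fatty acid carrier Cd36 (4.39), the non-canonical poly(A) polymerase Tent5c (4.35), the histone H2bc4 (4.31) and Fam220a (4.13). The 8 were taken only from called genes whose Ter119- and CD71med arrays did not overlap, so that trait was set by the choice.

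The largest falls took Uprt, a relative of uracil phosphoribosyltransferases, from 8.56, 8.62 and 9.08 to 4.59 and 4.73. Its signal fell by 4.09 (SE 0.31, limma adjusted p = 2.99e-07), and the midpoint arrays, at 5.88, 7.04 and 6.68, lay between the ends without touching either. Sdad1, a factor of large ribosomal subunit assembly, fell by 3.86, from 10.19, 10.34 and 10.40 to 6.85 and 6.04. Dctd, the deaminase that makes dUMP for thymidylate synthesis, was at 10.13, 10.39 and 10.29, then 6.11, 7.48 and 6.66 at the midpoint, and 6.95 and 6.19 in CD71med cells. Dctd fell before the midpoint, and its later difference of -0.18 was not called (limma adjusted p = 0.773). The other falls of this size were those of Ttc27 (-4.04), the Golgi mannosidase Man2a1 (-3.76), Sh2d4a (-3.67), the glutamine transporter Slc38a1 (-3.62) and the phosphatase inhibitor Ppp1r14b (-3.62). For Ttc27 and Ppp1r14b the 2 CD71med arrays stood over 1 unit apart (6.30 and 4.99, and 7.54 and 6.48), with embryo 15 the lower.

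**Figure D1:**
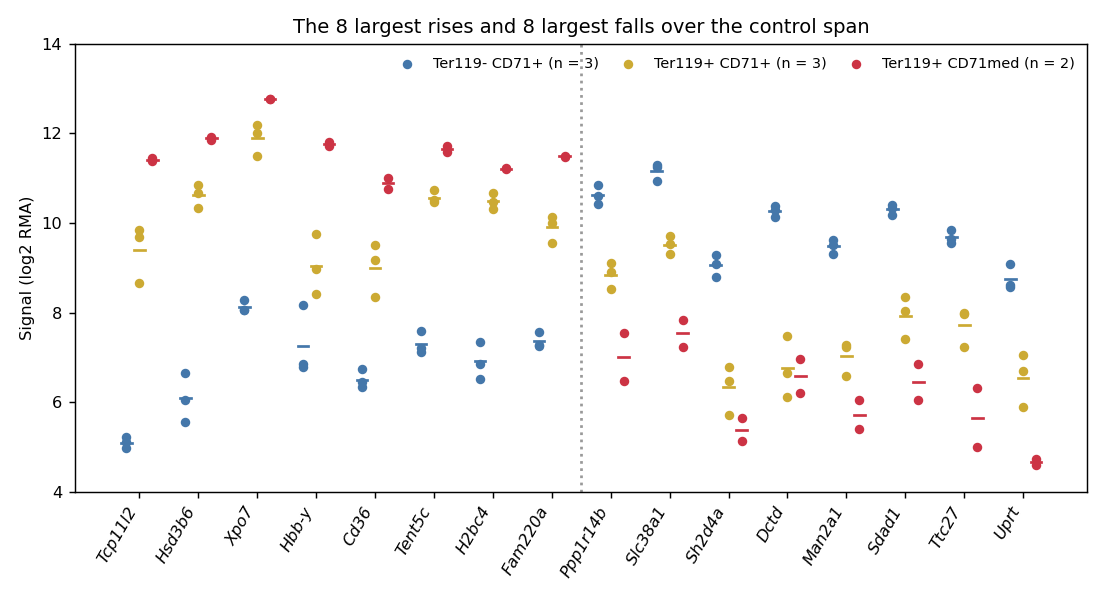
Log2 RMA signal (vertical axis) of the 8 largest rises and 8 largest falls over the span, with 1 point per control array and a bar at each group mean, coloured by sorted population. The 16 genes were chosen among those whose Ter119- and CD71med points do not overlap, and the midpoint of Dctd sits with its CD71med values.

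Promoters of the largest changes are shown because GATA and KLF factors bind short DNA motifs near erythroid genes. RefSeq's GRCm38.p6 table held a promoter, from 250 bases before to 50 after a start site, for 12 of these 16 genes. The motifs searched, on both strands, were AGATAA and TGATAA, with the forms AGATAG and TGATAG, for GATA factors and CCNCNCCC for KLF factors. Matches to the KLF motif may overlap each other. The 250 bases before the start of 4 genes follow, on the strand of the gene, with matches in capitals: Hsd3b6 (chr3:98814444-98814693, minus strand), Hbb-y (chr7:103853208-103853457, minus strand), Tent5c (chr3:100489193-100489442, minus strand) and the falling gene Sdad1 (chr5:92310025-92310274, minus strand).
Hsd3b6: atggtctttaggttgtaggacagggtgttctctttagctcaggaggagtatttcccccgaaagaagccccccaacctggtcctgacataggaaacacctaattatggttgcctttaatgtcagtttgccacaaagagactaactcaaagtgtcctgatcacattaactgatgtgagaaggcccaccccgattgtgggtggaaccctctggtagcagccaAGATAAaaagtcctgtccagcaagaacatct
Hbb-y: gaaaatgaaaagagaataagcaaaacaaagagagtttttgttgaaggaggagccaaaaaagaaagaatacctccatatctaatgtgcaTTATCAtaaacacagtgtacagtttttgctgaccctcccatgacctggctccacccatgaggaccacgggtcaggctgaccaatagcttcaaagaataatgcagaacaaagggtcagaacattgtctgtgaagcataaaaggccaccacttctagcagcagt
Tent5c: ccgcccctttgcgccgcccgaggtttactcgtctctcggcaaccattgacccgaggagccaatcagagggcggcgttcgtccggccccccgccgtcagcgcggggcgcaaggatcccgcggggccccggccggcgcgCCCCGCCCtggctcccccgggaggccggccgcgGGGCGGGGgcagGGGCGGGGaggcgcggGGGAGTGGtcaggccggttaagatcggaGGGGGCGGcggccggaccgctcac
Sdad1: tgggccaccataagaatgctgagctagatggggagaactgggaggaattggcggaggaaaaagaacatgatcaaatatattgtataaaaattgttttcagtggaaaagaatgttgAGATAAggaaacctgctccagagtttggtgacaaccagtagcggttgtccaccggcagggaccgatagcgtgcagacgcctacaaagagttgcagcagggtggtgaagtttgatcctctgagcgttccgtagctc
The match of Hsd3b6 ends 25 bases before its start site, that of Hbb-y (TTATCA) lies on the other strand and ends 156 bases before it, and Tent5c holds 5 KLF matches and 0 GATA matches. Sdad1, a falling gene, also holds a GATA match, which ends 129 bases before its start. Among these genes a GATA match lay in the printed window of 2 of 6 rising genes and 3 of 6 falling genes, and a KLF match in 2 of 6 of each. Over the 300 bases, 30% of 210 promoters of genes called at least 2 log2 units higher held a GATA match, against 18% of 383 promoters of genes called as much lower and 24.5% of 19177 promoters of genes on the array. The KLF match was held by 70.5%, 65% and 59.6% of the same promoters. These shares are descriptions, and a match is not evidence of binding.

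The globin genes measured, which leave out the adult alpha and beta globins, rose over the span. All 6 were called higher, beside 38.2% of all genes called, with a median difference of 3.04 against 0.14 for all genes. Hbb-y, the epsilon-like globin of primitive red cells, was at 8.17, 6.84 and 6.77 in Ter119- cells, 9.74, 8.97 and 8.42 at the midpoint, and 11.81 and 11.72 in CD71med cells. Embryo 2 was the highest of its group at both earlier stages, and the 13 arrays include none of its CD71med cells. Hbb-y rose by 4.50 (SE 0.39, limma adjusted p = 8.43e-07), and the zeta-like Hba-x rose by 2.47. The theta globins Hbq1a and Hbq1b rose by 2.99 and 3.08, but near-identical copies can share probes. The adult alpha and beta globins are not analysed here. The part of primitive red cells in these rises was not tested. Of 16 heme synthesis genes measured, 11 rose and 1 fell (75% called, beside 38.2% of all genes), with a median of 0.76. Alas2, the erythroid enzyme of the pathway's rate-limiting entry, rose from 10.07, 10.01 and 10.19 to 12.64 and 12.46. It stood at 12.28, 12.01 and 12.27 by the midpoint, and its step up to there was larger than the later one (limma adjusted p of the difference = 0.0069). Slc25a39, a mitochondrial glutathione carrier, rose by 2.46, Tspo2 by 2.29 and the oxidase Ppox by 1.51, and Tmem14c, a porphyrin transporter, fell by 0.53. The ubiquitous isoenzyme Alas1 was not called, at 6.26, 6.85 and 6.14 against 5.89 and 5.92.

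Iron genes moved in both directions. Of 20 measured, 7 rose and 5 fell (60% called, beside 38.2% of all genes). Slc25a37 (mitoferrin, which brings iron into mitochondria) rose from 11.19, 11.01 and 10.84 to 12.75 and 12.64, and Ncoa4, the ferritin receptor that releases stored iron by autophagy, rose by 1.63. Aco1, whose product is the iron regulatory protein IRP1, fell from 8.32, 8.70 and 8.67 to 6.31 and 6.60. The heme exporter Flvcr1 fell by 2.59 (SE 0.29, limma adjusted p = 9.66e-06), from 8.76, 9.19 and 9.22 to 6.45 and 6.49. Ter119- and CD71med arrays did not overlap for any of these 4 genes.

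Genes of the red cell membrane skeleton moved up together: 12 of 13 rose and 0 fell, with a median of 0.99. The share called was 92.3%, beside 38.2% of all genes. Tmod1, which caps the short actin filaments, was at 9.78, 10.13 and 10.09, then 11.71, 11.29 and 11.71, then 11.81 and 11.81. Epb42 (protein 4.2) rose by 1.70, Dmtn (dematin) by 1.44 and Mpp1 (p55) by 1.32. For Tmod1, Dmtn and Gypc the step up to the midpoint was the larger by test, and by the midpoint the list as a whole counted 11 of 13 called higher (background 7.27%). Among 20 surface antigens, channels and carriers, 12 rose and 3 fell (75% called, beside 38.2% of all genes). Slc2a1 (the glucose transporter GLUT1) rose from 9.83, 10.38 and 10.23 to 13.07 and 13.03, and Art4, which carries the Dombrock antigen, rose by 2.12. Cd44, an adhesion receptor used to stage erythroblasts because it declines with maturation, fell from 8.42, 8.36 and 8.36 to 6.01 and 5.77, with 6.52, 6.93 and 7.04 between them. Cd44 fell by 2.49 log2 units (SE 0.14, limma adjusted p = 3.69e-08).

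Kit and Myb, regulators of the progenitor state, fell before the midpoint. Kit, the receptor for stem cell factor, was at 8.77, 8.63 and 8.71 in Ter119- cells, 5.72, 5.51 and 5.73 at the midpoint and 6.14 and 5.88 in CD71med cells. Kit fell by 2.69 over the span, and its first step (-3.05) differed from its later one (0.36) (limma adjusted p = 0.000416). Myb followed the same course, at 8.93, 8.98 and 8.80, then 6.38, 6.65 and 6.58, then 6.62 and 6.83. Myc, by contrast, fell in both steps, from 10.37, 10.63 and 10.41 through 8.38, 8.69 and 8.67 to 7.08 and 6.72. Within the MYC and MAX network, Mxd1, which competes with MYC for MAX, rose by 3.13, Mxi1 by 1.51 and Mxd3 by 0.97, while Mga fell by 1.63, and 6 of 11 members were not called. The share called in this network was 45.5%, beside 38.2% of all genes. Of 23 progenitor regulators 6 fell and 3 rose, a share called (39.1%) close to that of all genes. The risers, of which 1 was called without the CD71med array of embryo 15, included Runx1t1, a transcriptional corepressor, which went from 7.34, 6.96 and 7.29 to 11.14 and 11.07.

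Among 22 erythroid transcription factors 9 rose and 6 fell (68.2% called, beside 38.2% of all genes). The master factors themselves did not pass the test: Gata1 read 9.45, 10.18 and 9.96 against 10.29 and 10.25 (difference 0.40, SE 0.19), and Klf1 read 9.62, 9.99 and 9.70 against 10.10 and 9.99 (difference 0.27, SE 0.13). Those 2 genes were singled out after their values were seen. Nfe2, a bZIP factor of late globin and heme genes, rose from 8.67, 8.5 and 8.63 to 11.10 and 10.97, and E2f2, the E2F of terminal erythroid divisions, rose by 2.23. Bcl11a, a repressor of embryonic globin genes, fell from a mean of 10.15 (SD 0.16, n = 3) through 9.06, 9.09 and 9.16 to 7.69 and 7.39. Nr2c1 (TR2), which also represses embryonic globin genes, fell by 2.11. In erythropoietin and KIT signalling 7 of 20 rose and 5 fell (60% called, beside 38.2% of all genes). Bcl2l1, the survival gene whose BCL-XL product acts below the erythropoietin receptor, rose from 7.75, 7.64 and 7.70 to 11.63 and 11.78, the serine kinase Pim1 rose by 2.75 and Jak2 by 0.97. Bcl2l1 and Pim1 had the larger step before the midpoint.

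Genes of protein and organelle clearance were more often higher than lower in CD71med cells. Of 23 ubiquitin enzymes linked to terminal remodelling 16 rose and 2 fell (78.3% called, beside 38.2% of all genes), with a median of 1.17. Ube2o, which marks unassembled globin and ribosomal proteins for destruction, rose from 7.43, 7.94 and 7.53 through 10.15, 10.21 and 10.55 to 11.39 and 11.50. Ube2h, the conjugating enzyme that works with the GID/CTLH ligase, rose by 3.98, Ube2l6 by 2.96 and Rnf11 by 2.78. Of 39 autophagy and mitophagy genes 18 rose and 10 fell (6 fell after the arrays were quantile-normalized again). The share called was 71.8%, beside 38.2% of all genes. In 14 members both steps were called in 1 direction without a called difference between them (6.84% of all genes). Gabarapl2, an ATG8 protein of the autophagosome, went from 8.27, 7.98 and 7.98 to 10.94 and 10.82, the protease Atg4a rose by 2.50, Atg14 by 2.36 and Map1lc3b (LC3B) by 2.07. Atg4c was the member with the largest fall, at -1.98. Of 23 late erythroid genes, a list drawn up with earlier results of these data known, 21 rose and 2 fell. All were thus called, beside 38.2% of all genes, and the risers included Bpgm (3.14), Tspo2 and Tent5c.

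**Figure D2:**
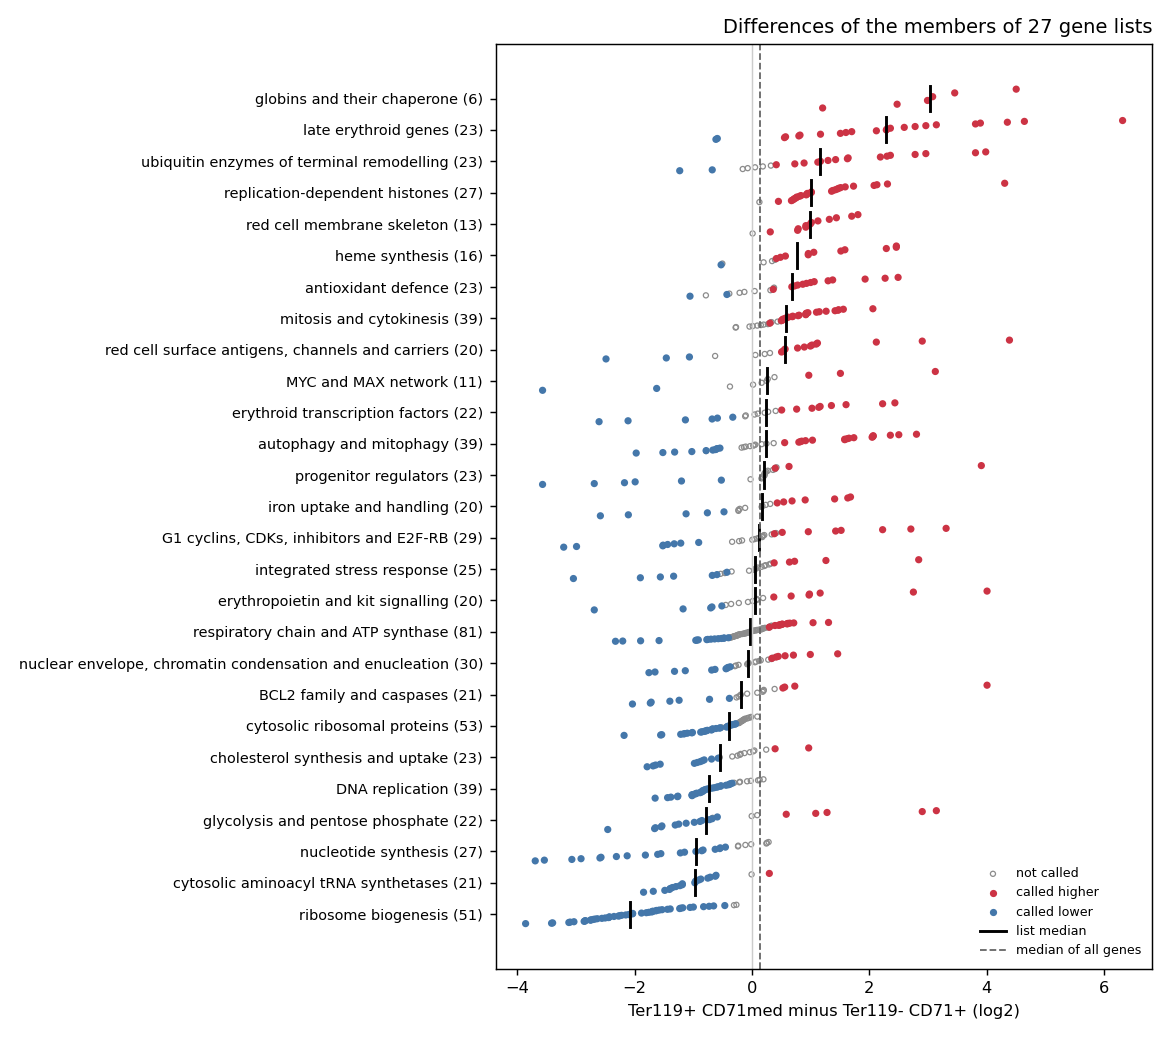
Difference between CD71med and Ter119- cells in log2 units (horizontal axis) for every measured member of 27 gene lists, with red points for genes called higher, blue for genes called lower and open points for the rest, a black bar at each list's median and a dashed line at 0.14, the median of all genes. Globin genes lie at the top with a median of 3.04 and ribosome biogenesis at the bottom with a median of -2.08.

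Genes for making ribosomes fell together. Of 51 ribosome biogenesis genes 49 fell and 0 rose (96.1% called, beside 38.2% of all genes), with a median of -2.08. Of these, 35 fell in both steps without a called difference between the steps, beside 6.84% of all genes in either direction. Polr1a, the largest subunit of RNA polymerase I, was at 9.65, 9.81 and 9.69, then 8.0, 8.24 and 8.18, then 6.81 and 6.55. The 3 stages of Polr1a did not overlap, and it fell by 3.04 (SE 0.13, limma adjusted p = 4.57e-09). Other falls were those of Rrp1b (-3.40), the small-subunit processome gene Heatr1 (-2.84) and the nucleolar phosphoprotein gene Nolc1 (-2.76). Of the 53 cytosolic ribosomal protein genes 30 were lower and 0 higher (56.6% called, beside 38.2% of all genes), with a median of -0.39. Rps28 fell from 11.58, 11.84 and 11.54 to 10.17 and 10.06, and Rplp1 (-1.15) and Rpl36 (-1.10) fell too. Multicopy ribosomal protein pseudogenes can share probes. Of 21 cytosolic aminoacyl tRNA synthetase and partner genes 19 fell and 1 rose (95.2% called, beside 38.2% of all genes). The falls included Eef1e1 (-1.85) and Tars (-1.36).

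Nucleotide synthesis genes were also lower, 20 of 27 of them (74.1%, beside 38.2% of all genes called), with 0 higher and a median of -0.96. Mthfd1, which supplies folate-bound carbon, fell from 9.73, 10.48 and 10.12 through 7.86, 8.37 and 8.46 to 6.62 and 6.51. Atic, the last enzyme of purine synthesis, fell by 3.07, and Cad, the first of pyrimidine synthesis, fell by 2.92. Dut, which clears dUTP, fell by 1.82. The ribonucleotide reductase genes Rrm1 (-0.24) and Rrm2 (0.25) were not called, and both were picked out after their values were seen.

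DNA replication and mitosis genes moved in opposite directions. Of 39 replication genes 31 were lower over the span and 0 higher (median -0.74). Of 39 mitosis and cytokinesis genes 26 were higher and 0 lower (median 0.58). The shares called were 79.5% and 66.7%, beside 38.2% of all genes. Pole, the leading-strand polymerase, was at 9.47, 9.79 and 9.74 in Ter119- cells and 9.52, 9.20 and 9.48 at the midpoint, which overlapped, and then at 8.39 and 8.06. Over the span Pole fell by 1.44 (SE 0.14, limma adjusted p = 2.7e-06). The clamp loader genes Rfc5 (-1.27) and Rfc1 (-0.94) and the replication initiator Mcm10 (-1.02) fell as well. Between Ter119- cells and the midpoint 1 replication gene was called higher and 1 lower (background 7.27% and 11.7%). Between the midpoint and CD71med cells 28 were called lower (background 9.21%) and 0 higher. The difference between the steps itself was called for 2 of the 39 (background 1.33%), Cdc6 and Gins1. Cdc6, the helicase loader, read 9.80, 9.61 and 9.70, then 10.12, 9.80 and 9.87, then 9.28 and 9.06. Without the CD71med array of embryo 15, 20 of the 39 replication genes were called lower.

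Mitosis genes were higher by the midpoint. In the step up to the midpoint 32 of 39 were called higher (background 7.27%) and 0 lower. In the later step 1 was called higher (background 4.11%) and 0 lower. The difference between steps was called for 4 (background 1.33%). Cdc25b, the phosphatase that starts mitosis by activating CDK1, rose from 8.86, 9.10 and 9.09 to 10.96, 10.54 and 11.08, and then read 11.01 and 11.14. Nusap1, a spindle microtubule protein, rose by 1.47, the centromere gene Cenpf by 1.42 and the securin gene Pttg1 by 1.56. Replication-dependent histone genes rose in 26 of 27 cases (96.3% called, beside 38.2% of all genes), with a median of 1.01 over the span. By the midpoint 26 were called higher (background 7.27%). H2bc4 went from 7.35, 6.51 and 6.85 to 10.47, 10.32 and 10.66 and then 11.23 and 11.20. The linker histone gene H1f2 rose by 2.13 and H4c9 by 1.51. Histone genes of these clusters are close copies, so probes may not tell them apart. Among 29 genes of the G1 machinery 8 rose and 8 fell (55.2% called, beside 38.2% of all genes). The inhibitor gene Cdkn2d (p19) rose from 6.66, 6.71 and 6.55 to 9.87 and 10.03, while Cdk6 fell from 9.25, 8.82 and 8.70 to 5.74 and 5.68, both mainly before the midpoint by test. Cdk4 fell by 2.99 in both steps together.

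**Figure D3:**
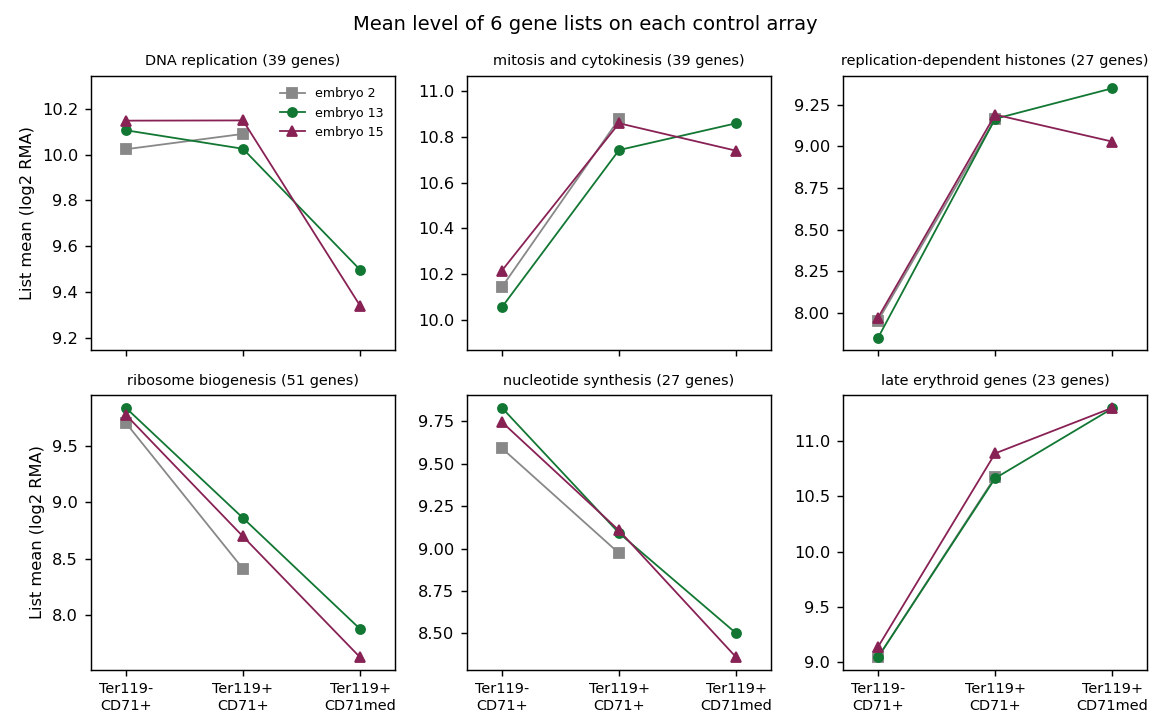
Mean log2 RMA signal over the members of 6 gene lists (vertical axes, each with its own range) on every control array, with lines joining arrays of the same embryo across the 3 sorted populations. The replication mean lies between 10.02 and 10.15 up to the midpoint and then drops to 9.50 and 9.34, mitosis and histones climb before the midpoint, and ribosome biogenesis falls in each step.

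Metabolic lists held changes in both directions. Of 22 glycolysis and pentose phosphate genes 14 fell and 5 rose (86.4% called, beside 38.2% of all genes). Ldha fell from 12.20, 12.55 and 12.48 through 11.22, 11.38 and 11.56 to 10.05 and 9.85, and the triose isomerase gene Tpi1 fell by 1.66. Bpgm, which makes the bisphosphoglycerate that lowers haemoglobin's oxygen affinity, rose from 9.08, 8.97 and 9.01 to 12.16 and 12.17. Of 81 respiratory chain and ATP synthase genes 15 rose and 16 fell, a called share of 38.3% beside 38.2% for all genes. After median centring 8 of them were higher. Falls included Atp5g2 (-2.21), Sdhd (-1.90) and Ndufb5 (-2.33). Of 23 cholesterol genes 11 fell (6 after quantile normalization again) and 2 rose, with Lss at -1.69 and the squalene synthase gene Fdft1 at 0.97. The share called in the cholesterol list was 56.5%, beside 38.2% of all genes. Of 23 antioxidant genes 13 rose and 2 fell (65.2% called, beside 38.2% of all genes). Glrx (glutaredoxin) went from 8.43, 8.49 and 8.72 to 11.10 and 10.97. The quinone reductase Nqo1 rose by 2.27, catalase (Cat) by 1.37 and the heme-sensing repressor Bach1 by 1.30.

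Stress, survival and nuclear lists also held changes in both directions. In that order, 48%, 52.4% and 56.7% of their members were called, beside 38.2% of all genes. Of 25 integrated stress response genes 7 fell and 5 rose (3 without the CD71med array of embryo 15). The serine synthesis gene Psat1 fell from 10.46, 10.47 and 10.54 to 7.63 and 7.26. Ppp1r15a (GADD34, which ends the response by restoring eIF2 activity) rose from 8.28, 7.79 and 7.90 to 10.84 and 10.82. Eif2ak1, the heme-regulated eIF2 kinase, rose by 1.26. In the BCL2 family and caspases 7 of 21 fell and 4 rose (2 without that array, and 6 after quantile normalization again). The pore-forming Bak1 fell from 8.89, 9.66 and 9.22 to 7.45 and 6.98, the BH3 gene Bid (-1.72) and Casp6 (-1.73) fell too, and Bcl2l1 was among the risers. Of 30 genes of the nuclear envelope, chromatin condensation and enucleation 10 fell and 7 rose (4 after median centring). Rac2 (-1.76) and Hdac3 (-1.66) fell, the formin Diaph3 rose by 1.46 and the lamin B receptor gene Lbr by 0.99.

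Timing was read with the midpoint arrays. Ter119- cells and the midpoint differed at 3789 genes (19%), 1449 higher and 2340 lower (11.7%) at the midpoint, and the midpoint and CD71med cells differed at 2656 (13.3%), 820 higher (4.11%) and 1836 lower in CD71med cells. The difference between the steps (first minus later) was called above 0 at 155 genes (0.777%) and below 0 at 111 (0.557%). The 2 steps share the midpoint arrays. Among genes called over the span, a gene was early where its first step was called and larger than the later step by test, late where the reverse held, and steady where both were called in 1 direction and did not differ by test. A gene was transient where its steps were called in opposite directions, whether or not the span was called. Early genes numbered 210 (1.05%; 119 up and 91 down), late genes 23 (0.115%; 7 and 16), steady genes 1363 (6.84%; 361 and 1002) and transient genes 27 (0.135%; 16 with a peak and 11 with a trough at the midpoint). Of the transient genes 3 were called over the span. The other 6016 genes called over the span (30.2%) could not be placed. With embryo as a fixed replicate block for the pairing there were 57 early, 5 late and 14 transient genes, of which 54, 2 and 9 were among those above. After median centring there were 126 early and 9 late genes, 120 and 8 of them among those above. As a description, genes called with a difference of at least 1 had covered a median of 55.2% of it at the midpoint (quartiles 43.1% and 68.7%), 63.5% for rises and 52.6% for falls. The midpoint arrays gave 63.6% (embryo 2), 49.8% (embryo 13) and 53.5% (embryo 15). Without the midpoint array of embryo 2 there were 22 early, 0 late and 10 transient genes, and without that of embryo 15 there were 48, 3 and 12. The later step called 867 genes without the CD71med array of embryo 15 and 1528 without the midpoint array of embryo 15. Steady genes numbered 579 without that CD71med array, 845 without the midpoint array of embryo 13 and 849 without that of embryo 15.

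Late genes moved more after the midpoint than before it. Their class set no direction for the first step. The median share of the span covered at the midpoint was -4.03% for the 7 late rises and -26.0% for the 16 late falls. A negative share means that the first step went the other way. For Ang6 and Bcor, described next, the shares were 18.6% and 20.9%. Ang6, a ribonuclease of the angiogenin family, read 5.99, 5.93 and 5.78, then 6.31, 6.41 and 6.38, then 8.32 and 8.53. Bcor, a corepressor that partners BCL6, read 8.18, 8.31 and 8.30, then 8.07, 7.61 and 7.99, then 6.48 and 6.46. Ang6 rose by 2.53 and Bcor fell by 1.79, with the later step larger in both (limma adjusted p of the difference 0.0119 and 0.0364). Among the other late genes Sdr39u1 rose by 1.11, Chsy1, a chondroitin synthase, fell by 1.51 and Glipr2 fell by 1.34. Transient genes returned towards their start. Ccnd3, the cyclin D of terminal erythroid divisions, read 8.28, 8.59 and 8.67, then 9.44, 8.98 and 9.36, then 8.72 and 8.72. Its first difference of 0.75 and its later one of -0.54 were both called (limma adjusted p = 0.00238 and 0.0483). Mybl1 and the linker histone H1f1 peaked in the same way. Pdcd4, a translation inhibitor, dipped from 9.22, 8.46 and 9.19 to 7.43, 7.54 and 7.45 and was back at 8.70 and 8.42. Ube2d1 and Nfia also had troughs at the midpoint, Ube2d1 at 7.25, 7.07 and 7.10, then 5.52, 5.71 and 5.79, then 6.32 and 6.24.

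**Figure D4:**
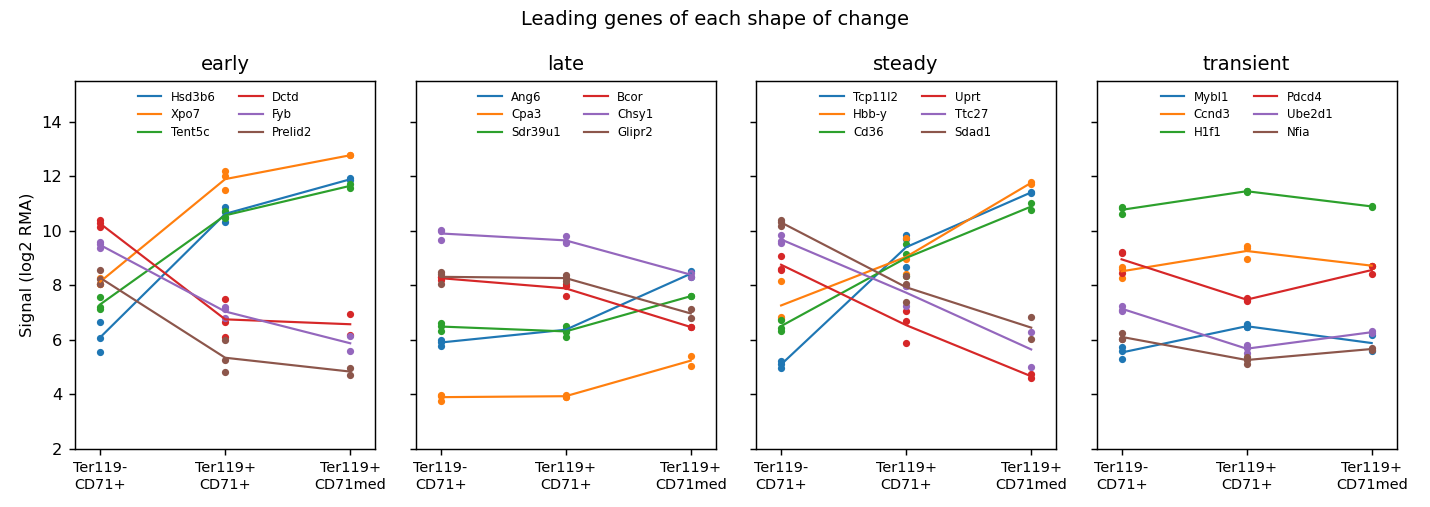
Log2 RMA signal (vertical axis, shared) of the leading genes of each class across the 3 sorted populations, with 1 point per array and lines through the group means. Early genes move more before the midpoint than after it, though several still change after it. Late genes move more after the midpoint, where Ang6 reaches 8.32 and 8.53, and transient genes turn at the midpoint.

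Some markers of other cells also differed between the ends of the span. Of 18 hepatocyte markers 16 were higher in CD71med cells, with a median difference of 0.94. The list mean was 5.77 to 5.90 on Ter119- arrays, 6.24 to 6.41 at the midpoint, and 6.80 and 6.77 on the CD71med arrays. Alb, which encodes albumin, read 7.88, 7.86 and 8.64, then 9.40, 8.99 and 9.08, then 9.80 and 9.81. Rbp4 rose by 1.37 and Ttr by 1.56, whereas the hepatocyte regulator Hnf4a (0.09) was not called. Of 19 neutrophil and myeloid markers 4 were higher (Mpo, Prg2, S100a9 and Ngp), and their list mean went from 5.09 to 5.44 up to 5.76 and 5.87. The CD71med arrays lay above all Ter119- arrays for 10 of the 19, beside 36.5% of all genes that were higher without overlap. The same held for 16 of 18 hepatocyte, 12 of 17 macrophage, 7 of 10 platelet and 10 of 11 mast cell markers. It held for 6 of 12 endothelial and 7 of 15 lymphoid markers. Of the 17 macrophage markers 6 were higher and 1 (Cd68) lower, with C1qb higher by 0.82 and Adgre1 by 0.76. Their lysozyme gene Lyz2 was not called and was at 5.23, 7.68 and 6.44 on Ter119- arrays, with embryo 13 highest, and at 8.0 and 7.67 in CD71med cells. Of 10 platelet markers 6 were higher, led by Ppbp at 6.92, 5.66 and 6.5 against 7.91 and 9.10. The counts were 3 higher and 1 lower of 12 for endothelial, 2 of 11 for mast cell and 1 of 15 for lymphoid markers. The shares called were 33.3%, 18.2% and 6.67%, and 21.1% for neutrophil and myeloid markers. They were 41.2% for macrophage, 60% for platelet and 88.9% for hepatocyte markers. Of all genes 38.2% were called in either direction and 18.1% were called higher. Among genes in the lowest 33.3% by mean signal 16.3% were called, 1019 times higher and 67 times lower. Without the CD71med array of embryo 15 the higher counts were 13 for hepatocyte, 0 for neutrophil, 3 for macrophage, 0 for endothelial and 0 for lymphoid markers. Cpa3, a mast cell protease gene, was among the late risers at 3.93, 3.77 and 3.98, then 3.91, 3.99 and 3.89, then 5.42 and 5.05. RMA signals have no true zero, so no marker can be given as absent. The part of such cells or their free RNA in the differences of erythroid genes was not tested.

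**Figure D5:**
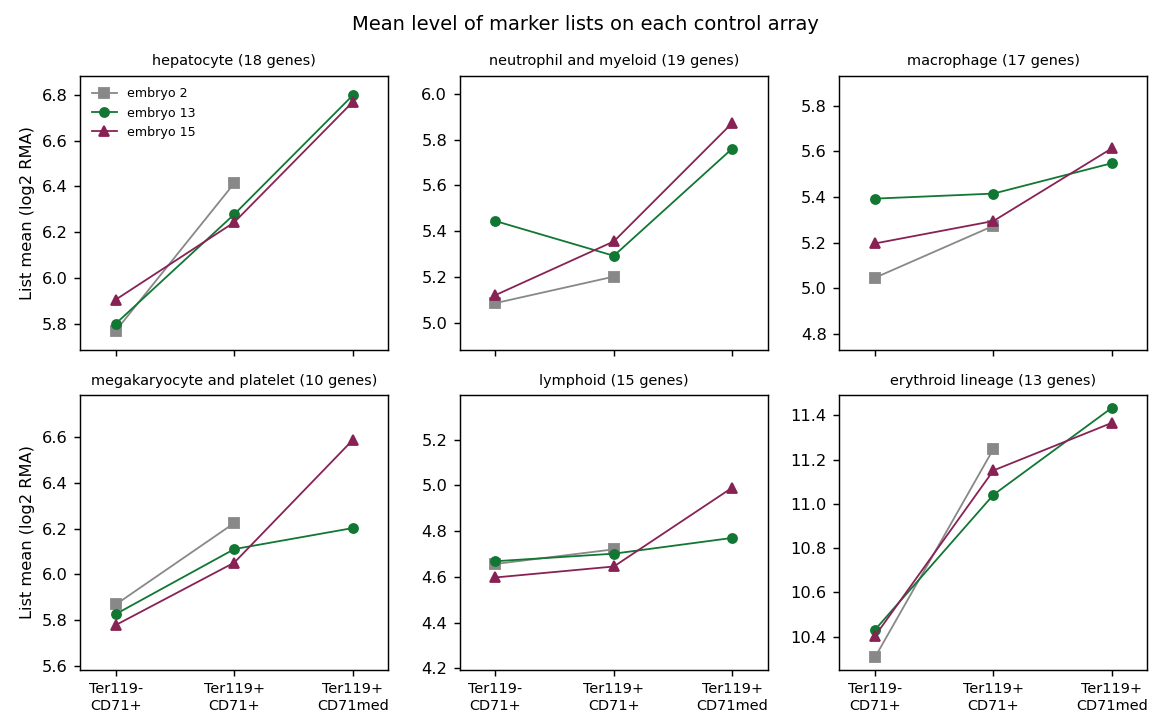
Mean log2 RMA signal over 5 lists of markers of other cells and the erythroid list (vertical axes, each with its own range) on every control array, with lines joining arrays of the same embryo. Hepatocyte and erythroid means climb in every embryo, and the lymphoid and platelet means are highest on the CD71med array of embryo 15.

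Adar, the gene the study targets, was measured in these heterozygous controls at 7.20, 7.81 and 7.79 in Ter119- cells, 7.43, 7.72 and 8.37 at the midpoint, and 8.11 and 8.54 in CD71med cells. The ends did not overlap, and the difference of 0.72 (SE 0.25) had a limma adjusted p of 0.0375. The call was lost under 5 of 17 alternatives, with adjusted p up to 0.297. A probe set outside the floxed exons would not report the deletion, and where this one lies was not examined.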

How the data were processed

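Sorted erythroid cells were measured on 13 biotin-labelled arrays. The deposited values are log2 signals. The authors made them by RMA according to the submitters' processing notes, which also name mm9 without a role. Over the genes tested, upper quartiles were 7.82 to 7.92 on the Ter119- arrays and 7.42 and 7.27 on the CD71med arrays, so these genes do not share 1 distribution across arrays. Gene symbols were read from the platform annotation: of 35556 probe sets 21789 had 1 symbol, and those with several (1621) or none listed (12146) were left out. Where a gene had several probe sets (999 genes), the brightest on average across the 13 arrays stood for it, giving 19938 genes.

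limma 3.58.1 (R 4.3.3) was fitted to all arrays in 5 group means (8 residual degrees of freedom, prior 5.56). Contrasts were control CD71med minus Ter119-, both steps through the midpoint, and the difference between steps. Two-sided p values were Benjamini-Hochberg adjusted over all genes, and calls needed an adjusted p under 0.05. The number of arrays limits precision. Tested on simulated data for this span, with 200 of 19938 genes changed in each of 5 draws, the fit recovered 87.6% of changes of 1 and 99.6% of changes of 2 log2 units, with 5.17% false calls. It placed 36.6% and 93.8% of them in the right class. Those draws changed far fewer genes than the 7615 called over the span. Whether the early, late, steady and transient genes reported above were placed at these rates was not tested.

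Named genes were the 8 largest differences in each direction without overlap, the 3 largest per class and direction, up to 4 members per list with the smallest adjusted p, and Tfrc, Kit, Cd44 and Adar; predicted and small RNA genes were passed over. Other genes given by name were picked after their values were seen. Members and all 35 lists were chosen with earlier results of these data known.

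Embryo numbers pair the populations, since same-numbered arrays come from the same animal. The 7 same-embryo pairs correlated between -0.225 and 0.35, 2 of them above 0.1 (consensus correlation 0.00385). Embryo was a block in 2 alternatives. The others changed the scaling (quantile or median), dropped the dimmest 33.3% of genes, averaged probe sets, let the prior follow intensity, used controls only, weighted arrays, or left out each array. Drawing and tables used matplotlib 3.10.9 and pandas 2.3.3 in Python 3.11.15.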

Additional observations from a re-analysis of the deposited data

How the results depend on the processing

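Over 17 alternatives the span kept its direction wherever it called the same genes, with 0 shared calls of opposite sign. Quantile normalization again called 7078 genes (3612 higher, 3466 lower), 5617 of them shared with the 7615. Of 147 named genes called, 134 stayed called under each of the 17 that held them, and 13, mostly markers of other cells, lost the call in at least 1. A gene dropped as dim was not counted as lost there. Most named genes were chosen by size or adjusted p in these data, which favours calls that stay. Leaving out each array in turn gave 5178 to 8189 span calls (2030 to 4401 higher, 3148 to 3984 lower), 2884 to 3860 in the first step, 867 to 2892 in the second and 24 to 299 for the difference between steps. Classes were less stable: 22 to 227 early, 0 to 30 late, 579 to 1366 steady and 9 to 48 transient genes. The lowest of these came without the midpoint array of embryo 2 (2884, 24, 22 and 0) or the CD71med array of embryo 15 (5178, 867, 579 and 9). Median centring gave 146 step differences, 126 early genes (120 of them among the 210) and 9 late genes (8 among the 23), and controls alone gave 12 late genes (7 among the 23). Array weights gave 6349 calls in the first step, 427 step differences and 50 late genes. With embryo as a fixed replicate block on the 8 control arrays, the paired fit called 6598 genes (2758 higher, 3840 lower), 66 step differences, 57 early, 5 late and 14 transient genes. As a random block it called 7627. The block had fewer residual degrees of freedom, and whether that moved the counts was not tested. Lists that the text leads with ranged as follows: ribosome biogenesis 47 to 50 lower, mitosis 23 to 27 higher, histones 21 to 26 higher, late erythroid genes 21 higher and replication 20 to 31 lower.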

Other observations

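Several genes of fatty acid desaturation and elongation, picked after their values were seen, fell over the span. The desaturase gene Scd1 read 9.24, 10.01 and 9.86 in Ter119- cells and 7.09 and 6.48 in CD71med cells, and Fads2 read 9.26, 9.94 and 9.85 against 6.43 and 6.09. Scd2 (-3.32) and the elongase genes Elovl5 (-3.23) and Elovl6 (-3.28) fell as far. Srm, which makes the polyamine spermidine, fell from 10.29, 10.93 and 10.56 to 7.12 and 6.99. Igf2bp1, a fetal RNA-binding protein gene, fell by 3.44, whereas Ccng2 and Ypel5 rose by 4.05 and 3.93. These genes were picked after their values were seen, so their limma calls (largest adjusted p = 3.13e-06, for Scd2) carry no weight as a group.

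Some interferon-response genes were higher in control CD71med cells. Rsad2 (viperin) read 5.77, 5.59 and 5.45 in Ter119- cells, 5.89, 6.71 and 7.70 at the midpoint, and 8.53 and 9.33 in CD71med cells. Ifit1 rose from 5.0, 5.10 and 4.80 to 7.86 and 7.92, and Oasl2 by 2.95. Other genes of that response did not follow: Ifit2 fell from 7.91, 7.29 and 7.93 to 6.03 and 5.06, and Mx1 (0.09) and Usp18 (0.77) were not called. This selection was also made after the values were seen.

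Among 13767 probe sets without exactly 1 gene symbol, 2306 were called over the span (16.8%), 1429 higher and 877 lower. Of 999 genes with several probe sets, 605 had at least 1 called, and in 9 of these probe sets were called in opposite directions. Genes in the lowest 33.3% by mean signal were called higher 1019 times and lower 67 times, those in the highest 33.3% 1415 and 2903 times.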
